A study of Mus musculus with 5 samples.

Results

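The transcriptome of the normal mouse lens was described at postnatal day 14 (P14) from the 3 control libraries of a study of the lens with 5 libraries in all. The libraries are those labelled as controls, and the 2 conditional knockout (cKO) libraries of the study were not used. Each control library (Ctrl 1, 2 and 3) was made from 4 to 6 whole lenses dissected at P14 and pooled, from Yap1 f/f and Yap1 f/+ littermates that showed no abnormality. The genotype field nevertheless calls these mice WT, so the controls carry floxed Yap1 alleles in unstated proportions. No Cre is named for them. Pools are the replicates (n = 3), and the spread between them is a spread between pools of animals, not between single mice. Of 22183 genes in the deposited table, 15320 had a count in at least 1 control library, 12889 had a count in every library and 6863 had none.

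The lens is built from 2 cell types inside a collagen capsule. A single layer of epithelial cells covers the anterior face, and cells at its equator leave the cell cycle, elongate and become fibre cells, which fill the rest of the organ. Fibre cells accumulate crystallins, soluble proteins that give the lens its refractive index, and later degrade their nuclei and organelles, so that the mature fibre lives on the proteins and RNA it already holds. The α-crystallins are small heat shock proteins with chaperone activity, and the β- and γ-crystallins share a compact fold that tolerates very high protein concentration.

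Total expected counts were 24192565 in Ctrl 1, 22047580 in Ctrl 2 and 25762802 in Ctrl 3. Levels are given as TPM, the deposited FPKM rescaled to the same sum in each library, so that genes are compared per length. On this scale 10000 TPM is 1% of transcripts. A count of 0 allows up to 3 counts, or 0.116 to 0.136 CPM (counts scaled by the library total), and covers counting error only. The 3 libraries were alike over 10608 genes that passed a filter on low counts. Across these genes, which are not independent replicates, Pearson's r of log2 CPM was 0.983 between Ctrl 1 and Ctrl 2, and 0.975 between Ctrl 3 and each of the others. Ctrl 3 stood somewhat apart: among genes with a mean of at least 10 CPM, 4 were at least 2-fold higher and 15 at least 2-fold lower there than in both other libraries, against 2 and 2 for Ctrl 1 and 1 and 1 for Ctrl 2.

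Transcript abundance was concentrated in very few genes. In each of the 3 libraries 5 genes held 50% of all transcripts, and all were crystallins. By mean level they were Crygb, Cryba1, Cryaa, Cryga and Crygc, although in Ctrl 2 Crybb2 took the place of Crygc. To show what stands before the 5 genes with the highest mean, the 120 bases before the start site of each are printed here from RefSeq (GRCm38.p6), 5′ to 3′ on the gene's strand. Capitals mark TATANA (the core letters of a TATA box) on the gene's strand where it lay wholly between bases -40 and -16, and TGCTGA (letters of the site bound by large Maf proteins, on either strand).
Crygb, chr1:65082291-65082410, minus strand: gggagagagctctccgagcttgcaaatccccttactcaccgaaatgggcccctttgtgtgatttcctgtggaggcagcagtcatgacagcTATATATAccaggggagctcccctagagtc
Cryba1, chr11:77725294-77725413, minus strand: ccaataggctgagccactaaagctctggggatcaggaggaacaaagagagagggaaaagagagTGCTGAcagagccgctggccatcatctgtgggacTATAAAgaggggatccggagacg
Cryaa, chr17:31677811-31677930, plus strand: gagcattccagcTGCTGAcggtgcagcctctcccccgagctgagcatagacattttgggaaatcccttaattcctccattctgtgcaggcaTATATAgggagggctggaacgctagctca
Cryga, chr1:65103364-65103483, minus strand: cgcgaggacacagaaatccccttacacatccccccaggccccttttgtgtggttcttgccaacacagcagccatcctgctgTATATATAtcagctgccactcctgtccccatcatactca
Crygc, chr1:65073533-65073652, minus strand: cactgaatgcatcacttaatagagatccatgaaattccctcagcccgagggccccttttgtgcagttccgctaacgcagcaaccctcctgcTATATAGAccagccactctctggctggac
All 5 held TATANA in this window. In Crygb, Cryga and Crygc 2 copies overlapped, starting at bases -30 and -28, -39 and -37, and -29 and -27. In Cryaa it started at base -29 and in Cryba1 at base -23.

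RefSeq promoters of 300 bases (250 before and 50 after the start) were matched by symbol for 15 of the 16 crystallins and for 16765 of the 22183 genes of the table, and a gene with several starts was counted if any of them held the motif. TATANA between bases -40 and -16 stood before 10 of 15 crystallins (66.7%), against 744 of the 16765 genes (4.44%) and 3.08% of all 32851 promoters in the RefSeq table. The crystallins with it were Crygb, Cryba1, Cryaa, Cryga, Crygc, Crygs, Crybb1, Crygd, Crygf and Crygn. Abundant genes outside the crystallins did not share this frequency: it was found in 1 of 10 matched genes at 1000 TPM or more, 14 of 170 (8.24%) at 100 to 1000 TPM, 1.87% at 10 to 100 TPM and 1.77% at 1 to 10 TPM. Among genes with no count in the control lens it was found in 406 of 4777 (8.50%). TGCTGA on either strand anywhere in the 300 bases was found in 10 of 15 crystallins (66.7%), in 20.4% of the matched genes and in 19.5% of all promoters. Copies of TATANA can overlap each other, but the 2 motifs cannot share a base. A match describes the letters only, and 8 of the crystallin genes are γ-crystallins that resemble each other, so these promoters are not independent of one another.

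The 16 crystallins together made up 85.4% of TPM in Ctrl 1, 85.1% in Ctrl 2 and 84.5% in Ctrl 3, a mean of 84.99 ± 0.483% (SD, n = 3). The γ-crystallins were the largest class with 41.3 ± 0.469% of transcripts over 8 genes, followed by the β-crystallins with 31.5 ± 0.664% over 6 genes and the α-crystallins with 12.2 ± 0.430% over 2 genes. These classes kept this order in every library, and their ranges did not overlap. As a share of expected counts, which favours long transcripts, crystallins held 72.6 ± 1.33%, since their transcripts are short, at 612 to 1255 bases.

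Crygb, a γ-crystallin, was the most abundant transcript, with 157588, 159777 and 163112 TPM in Ctrl 1, 2 and 3. Cryba1, a β-crystallin, came next with 125883, 133973 and 132889 TPM. Cryaa, the lens-specific α-crystallin, had 100797, 98380 and 97461 TPM. The ranges of these 3 genes did not overlap, so their order was the same in every library. By expected counts the order turned: Cryaa, the longest of the 3, led in every library. Cryba1 and Crygb were then nearly equal, with means of 110547 and 110218 CPM. Crygb had more counts than Cryba1 in Ctrl 1 and Ctrl 3, and fewer in Ctrl 2.

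Below them, Cryga had 69101, 73836 and 85096 TPM, and was higher in Ctrl 3 than in the others. Crygc had 70522, 66437 and 63402 TPM, and the β-crystallin Crybb2 had 68364, 69529 and 62382 TPM. The ranges of these 3 overlapped. Cryga was above Crybb2 in every library, while the place of Crygc changed: it exceeded Cryga in Ctrl 1 and lay below Crybb2 in Ctrl 2. Crygs, a γ-crystallin made throughout adult life, followed at 47951 ± 2306 TPM, then Crybb3 at 41889 ± 1619 and Crybb1 at 34609 ± 712 TPM (SD, n = 3). Crygd, Cryab, Cryge, Cryba2 and Cryba4 lay between 20357 and 24261 TPM on average, and each overlapped its neighbour in the order. Cryab, the α-crystallin that is also made outside the lens, had 26305, 22565 and 21361 TPM, highest in Ctrl 1.

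Crygf closed the group of very abundant crystallins at 13433 ± 509 TPM and was 2.09-fold above Fabp5, the most abundant gene that is not a crystallin. Crygn was the exception among the 16, with 1628, 1561 and 1798 TPM and rank 24 in the whole table. Of the 15 neighbouring pairs in the order of crystallins, 9 did not overlap. For 7 of the 16 crystallins (Crygb, Cryga, Crygc, Crygd, Cryge, Crygf and Cryab) some counts were not whole numbers, which marks reads assigned in part to more than 1 gene, so levels of near-identical γ-crystallins are uncertain.

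**Figure D1:**
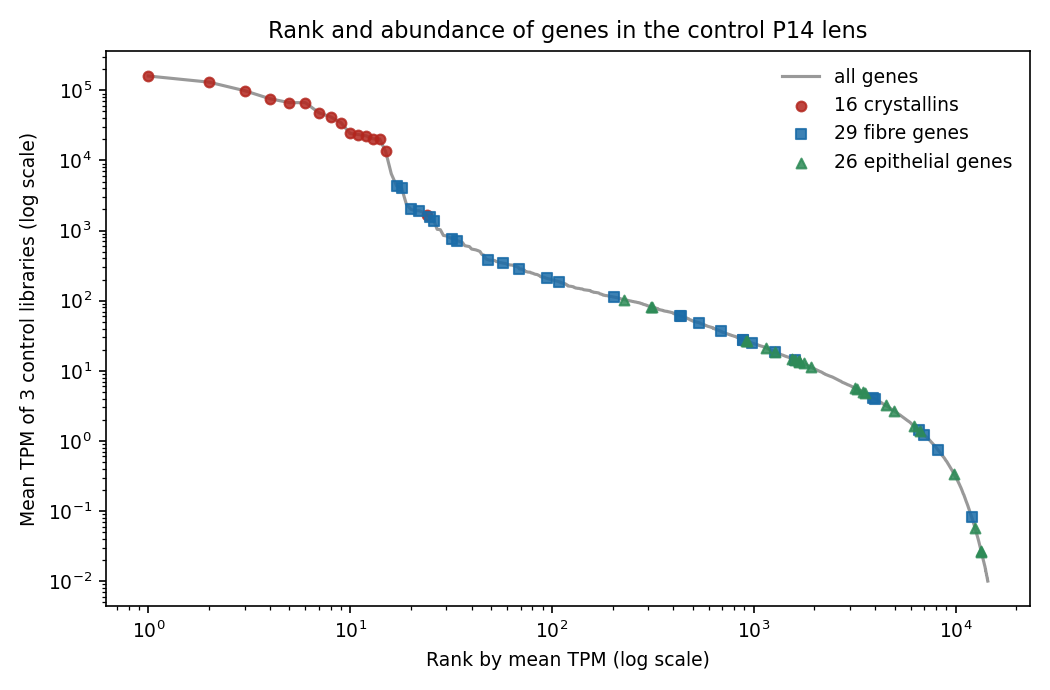
Mean TPM of each gene (vertical, log scale) against its rank (horizontal, log scale) over the 3 control libraries, with a grey line for all genes at 0.01 TPM or more and symbols for 16 crystallins, 29 fibre genes and 26 epithelial genes. The first 15 ranks are crystallins above 10000 TPM, most fibre genes lie before rank 1000, and the epithelial genes begin at rank 227.

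By level, 15 genes stood at 10000 TPM or more, all of them crystallins, and held 84.8 ± 0.493% of transcripts. A further 13 genes between 1000 and 10000 TPM held 3.16%, 213 genes between 100 and 1000 TPM held 4.54%, and 1856 genes between 10 and 100 TPM held 5.33%. The 5400 genes between 1 and 10 TPM, the most numerous class of these, held 1.95%. Transcript length ran the other way, with a median of 749 bases in the highest class, 1240 bases at 100 to 1000 TPM and 2601 bases at 1 to 10 TPM. In every library, 6915 genes reached 1 TPM, 1921 reached 10 TPM and 207 reached 100 TPM.

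Without the crystallins the distribution was far flatter. It took 210, 213 and 240 genes in Ctrl 1, 2 and 3 to hold 50% of the remaining transcripts, and 2825 to 2952 genes to hold 90% of them. By expected counts, not corrected for length, 364 genes on average held 50%. The 30 most abundant genes held 27.6% of transcripts outside the crystallins and the first 60 held 34.1%. Of the 30, 28 were among the first 30 of every single library, and their coefficients of variation had a median of 8.76% and a maximum of 16.9%. The list also depends on length: 22 of the 30 were among the first 30 by expected counts, where Bfsp2 rather than Fabp5 came first and short transcripts such as Ndufa1 (rank 110) and Gng5 (rank 85) dropped out.

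Fabp5, a carrier of fatty acids in the cytosol, led this order with 6832 and 6818 TPM in Ctrl 1 and 2 and 5672 in Ctrl 3. Bfsp2 (phakinin), a subunit of the beaded filament that is particular to fibre cells, had 4070, 4539 and 4409 TPM. Lim2, an integral protein of the fibre membrane, had 3779, 4535 and 3810 TPM. Fabp5 did not overlap the other 2 genes, whereas the ranges of Bfsp2 and Lim2 overlapped. Within each library Bfsp2 was the higher of these 2, by very little in Ctrl 2. Both were far above the ferritin light chain gene Ftl1, with 2372, 2592 and 2167 TPM.

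Hspb1, a small heat shock protein, had 2304, 1639 and 2084 TPM and the second largest variation of the 30, being lowest in Ctrl 2. Ubb, a polyubiquitin gene, averaged 1918 ± 94.9 TPM. Grifin, a lens galectin that lacks sugar binding, averaged 1916 ± 134 TPM, and the stress-induced nuclear protein Nupr1 1829 ± 139 TPM. From Ftl1 to Nupr1 the range of each gene overlapped that of its neighbour, although Ftl1 was above Hspb1 in every library. Bfsp1 (filensin), the partner of Bfsp2, averaged 1587 ± 85.8 TPM and Lgsn (lengsin), a lens protein of the glutamine synthetase family, 1381 ± 168 TPM. Each of these 2 stood clear of the gene before and after it. Filensin was thus at a lower transcript level than phakinin in every library, with 1504, 1582 and 1675 TPM.

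From Cd24a (1043 ± 47.2 TPM), a glycoprotein of the cell surface, downward the order was nearly continuous: only Clu, an extracellular chaperone, stood clear of the gene that followed it. This stretch mixed fibre genes with genes that most cells use. Mip, the main water channel of fibre membranes, averaged 765 ± 65.7 TPM and Tdrd7, a component of RNA granules whose loss causes cataract, 716 ± 57.4 TPM. Hmox1, which breaks down haem, had 705, 757 and 942 TPM, and Pgam2, the muscle form of a glycolytic mutase, had 619, 668 and 806 TPM; both were highest in Ctrl 3. The everyday genes Ppia (1029 ± 98.3 TPM), Tuba1a (839 ± 70.1), Actb (755 ± 37.0), Gapdh (538 ± 9.55) and Hspa8 (530 ± 49.3) had levels of the same order as Mip. The remaining genes of the 30 were mt-Atp6, mt-Cytb and Ndufa1 of the respiratory chain, Mgarp, Lctl, Hmgn3, Gng5, Igfbp7 and Mocs2, between 447 and 852 TPM on average.

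**Figure D2:**
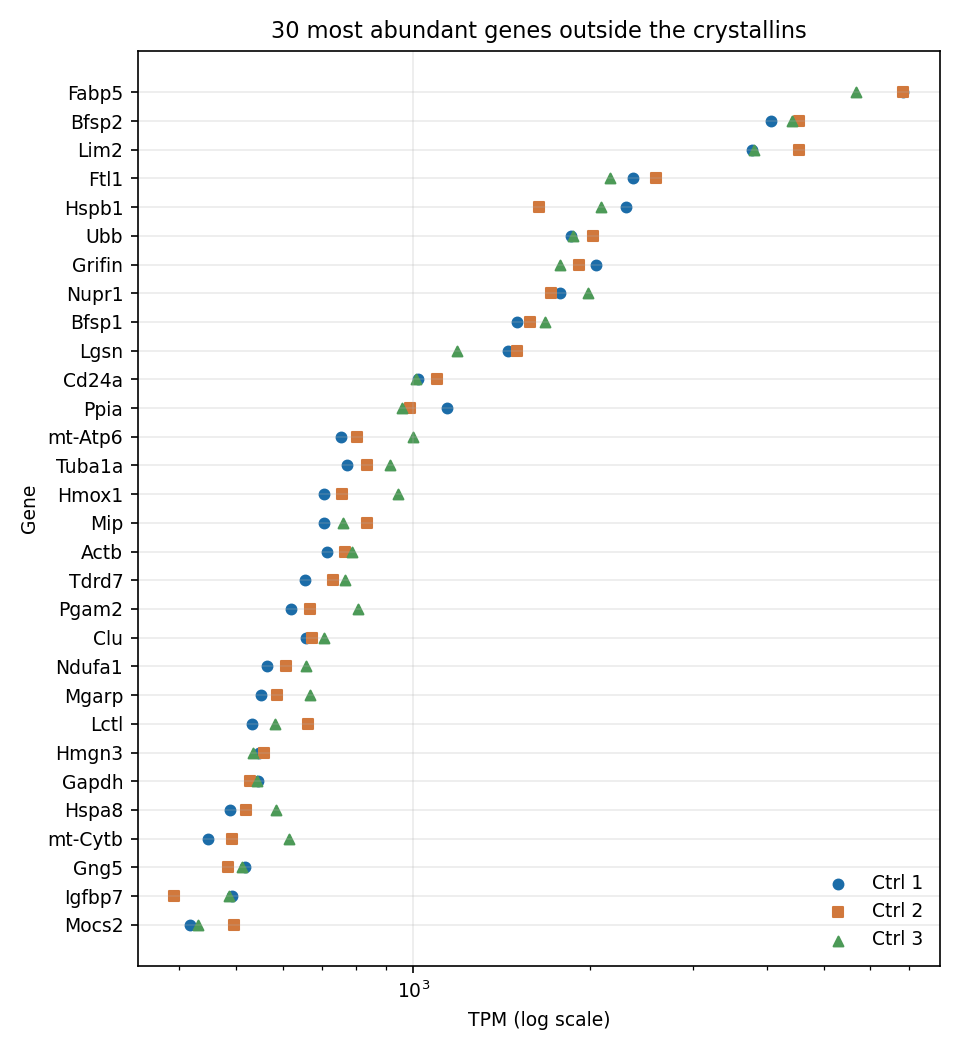
TPM (horizontal, log scale) of the 30 most abundant genes outside the crystallins, 1 symbol per control library. Levels run from 6441 TPM for Fabp5 to 447 TPM for Mocs2 on average, and the libraries lie close together for each gene, widest for Hspb1 and mt-Cytb.

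Fibre and epithelial genes were compared through 2 lists of genes known chiefly from either cell type, 29 for fibre cells and 26 for epithelial cells, neither of which is exclusive. The fibre genes, crystallins not counted, summed to 18206, 19214 and 18407 TPM, and the epithelial genes to 506, 422 and 528 TPM. The ratio of the sums was 36.0, 45.5 and 34.9, or 5.27 ± 0.21 on the log2 scale (SD, n = 3), and was highest in Ctrl 2, where the epithelial sum was lowest. On expected counts, not corrected for length, it was smaller, at 4.22 on the log2 scale. The medians of the lists lay closer, at 68.5 ± 16.8 TPM against 10.9 ± 1.08 TPM. All genes with a count had a median of 1.11 to 1.28 TPM in the 3 libraries. In each library 23 of the 29 fibre genes exceeded the epithelial median, and 2 or 3 of the 26 epithelial genes exceeded the fibre median. In RNA from a whole organ, more cells of a type and more RNA per cell cannot be told apart.

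The fibre list spanned a wide range. Gja3, a connexin that couples fibre cells, had 289, 373 and 370 TPM and was lowest in Ctrl 1. Lenep, named as a lens epithelial protein but listed here with fibre genes, averaged 386 ± 26.5 TPM. Birc7, an inhibitor of apoptosis (284 ± 4.98 TPM), and Tmem40, a membrane protein (188 ± 11.8 TPM), were among the steadiest. Caprin2, an RNA-binding protein, had 166, 230 and 227 TPM.

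Dnase2b, the acid nuclease that degrades fibre DNA, had 50.9, 70.3 and 59.1 TPM. Rbm24, an RNA-binding protein that stabilises crystallin messages, averaged 48.6 ± 7.02 TPM. Cytoskeletal fibre genes were lower than the beaded filament genes by orders of magnitude, with Ank2, a membrane adaptor, at 20.2, 26.3 and 36.2 TPM and the actin-capping gene Tmod1 at 14.3 ± 0.490 TPM. At the foot of the list, Fyco1, an autophagy adaptor mutated in cataract, had 1.23 ± 0.253 TPM, Sox1, a transcription factor needed for γ-crystallin expression, had 0.741 ± 0.0142 TPM, and Slc24a1 had 0.166, 0.0720 and 0.00650 TPM. Membership of the fibre list therefore did not imply a high level.

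The highest epithelial genes were Atp1b3, a sodium pump subunit, with 100, 89.2 and 121 TPM, Col4a1, a chain of capsule collagen, with 86.2, 70.8 and 90.4 TPM, and Slc2a1, a glucose transporter, with 100, 66.8 and 78.3 TPM. All 3 were lowest in Ctrl 2. Foxe3, the transcription factor that maintains the epithelium, was also lowest there, with 14.5 TPM in Ctrl 2 against 21.4 in Ctrl 1 and 28.1 in Ctrl 3. Gja1, the epithelial connexin, had 16.9, 10.6 and 15.3 TPM, and Aqp1, the epithelial water channel, had 5.47, 2.77 and 6.96 TPM. Cdh1 (E-cadherin) had 4.85, 4.16 and 8.03 TPM. Of the 23 epithelial genes that could be tested for spread, 11 were lowest in Ctrl 2, 5 in Ctrl 1 and 7 in Ctrl 3, while of all genes tested 32.9% were lowest in Ctrl 2, 32.4% in Ctrl 1 and 34.7% in Ctrl 3. Otx2 (0.173, 0 and 0 TPM), Itgb4 (0.0274 ± 0.00650 TPM) and Sfrp2 (0.0259 ± 0.0286 TPM) were close to the floor, and rested on at most 8 counts in a library.

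**Figure D3:**
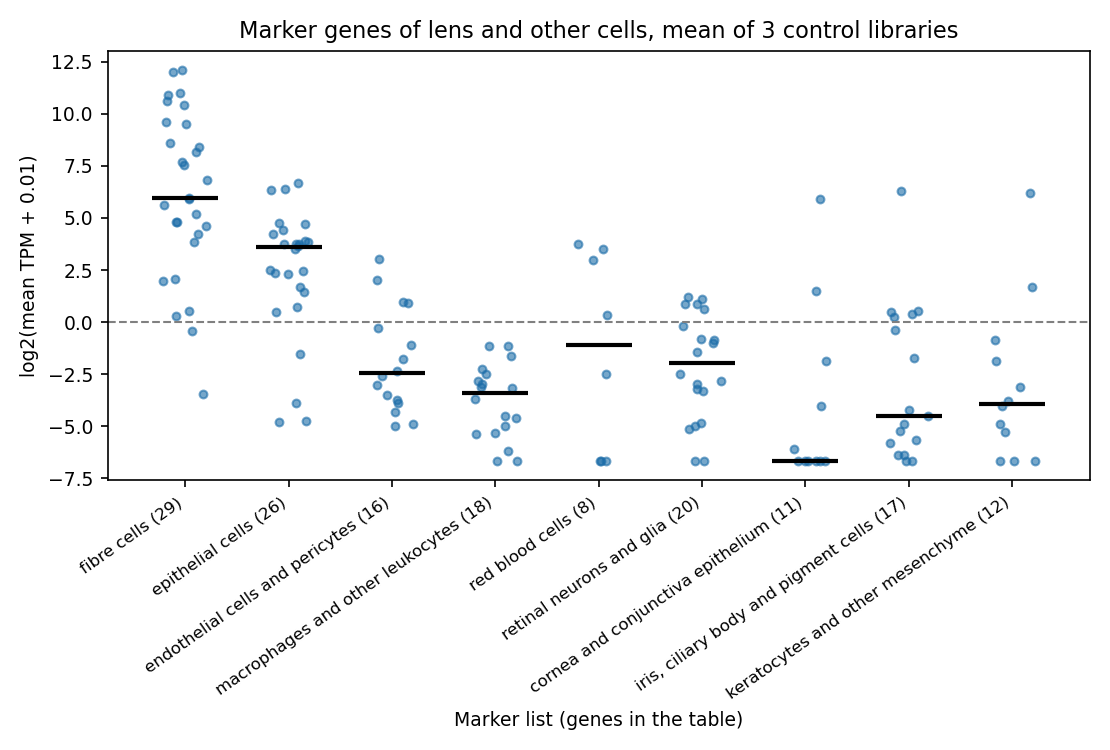
Each point is the mean of 3 control libraries for 1 gene, as log2(TPM + 0.01) on the vertical axis, in 9 marker lists, with bars at list medians and a dashed line at 1 TPM. The fibre and epithelial lists have medians above 1 TPM, and the lists of other cell types have medians below it with a few high genes such as Mfap2, Acta2 and Tkt.

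Markers of other cells that a dissected lens can carry were low. The 18 leukocyte genes summed to 1.89 to 2.64 TPM, none reached 1 TPM, and Ptprc and Cd3e had no count in any library. The 16 endothelial and pericyte genes summed to 18.7, 13.96 and 22.8 TPM, and 3 of them reached 1 TPM in every library. These were Egfl7 (7.63, 6.88 and 10.3 TPM), Rgs5 (4.48, 2.64 and 5.13 TPM) and Pdgfrb (1.67, 1.90 and 2.00 TPM). Pecam1 was at 8 to 19 counts and Cdh5 at 2 to 9 counts. The vessels around the lens regress at about this age in mice.

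Of the 11 genes listed for cornea and conjunctiva, 6 had no count, among them the keratins Krt12, Krt5 and Krt14 and the basal cell gene Trp63. Aldh3a1, an abundant corneal enzyme, had 190, 116 and 70 counts (4.15, 2.82 and 1.47 TPM), and Krt15 had 18, 8 and 9 counts, while 59.3 of the list's 62.5 TPM came from Tkt, a transketolase that also serves metabolism in other cells. Of the 12 genes of the mesenchymal list, Mfap2, a microfibril protein, had 60.7, 63.3 and 98.4 TPM and Pdgfra had 442, 415 and 513 counts (3.25 ± 0.152 TPM). Col1a2 had 50, 23 and 39 counts, while Col1a1 and Col3a1 were at 8 counts or fewer, Dcn at 2 or fewer, and 3 genes had no count. In the list of iris and pigment cells, Acta2, a smooth muscle actin, had 79.8, 88.3 and 65.9 TPM, and Tyrp1, a pigment enzyme, had 0.985, 1.02 and 1.96 TPM.

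Genes of blood and retina differed most between the libraries, with coefficients of variation of 85.7% and 98.3% for their sums, the largest of the 34 lists. Globin genes were highest in Ctrl 1, where Hbb-bs had 26.01 TPM against 3.03 in Ctrl 2 and 11.4 in Ctrl 3. The red cell list summed to 64.99, 7.10 and 29.97 TPM. The retinal list summed to 27.8, 7.33 and 4.10 TPM. Both lists were thus highest in Ctrl 1, although they amounted to 0.0229% and 0.00887% of transcripts outside the crystallins. The Y-linked genes Ddx3y (6.77, 9.22 and 8.08 TPM) and Eif2s3y (11.8, 12.7 and 15.2 TPM) were present in each library, so each pool held lenses of male mice.

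Functions were described by gene lists of unequal size, so a larger sum does not by itself rank a function above another. Genes of inherited cataract apart from crystallins (31 genes) held 8.12 ± 0.494% of transcripts outside the crystallins, most of it from Bfsp2, Lim2 and Bfsp1, and 27 of the 31 reached 1 TPM in every library. Unc45b, a myosin chaperone, had no count. Structural genes of the cytoskeleton (23) held 5.89 ± 0.136% and membrane channels and junctions (21) 3.62 ± 0.344%. These lists share members with the fibre list, and Lim2 alone made up most of the last. By the Gene Ontology terms of the deposited table, intermediate filament genes held 4.51 ± 0.139%, of which Bfsp2 gave 64.1%.

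Cytosolic ribosomal proteins (85 genes) held 4.99 ± 0.646% of transcripts outside the crystallins, spread over many genes. Their levels were uneven, with a median of 71.9 TPM. The highest was Rpl13 at 442, 358 and 333 TPM, and 3 genes had no count. Translation factors (19) held 1.04 ± 0.0361%, with Eif5a at 259 ± 21.2 and Eef1a1 at 204 ± 7.34 TPM. Chaperones (21) held 2.53 ± 0.242%, with Hspb1 giving the largest part, and 7 of the 21 averaged 100 TPM or more. These included the cytosolic folding genes Hsp90ab1 (256 ± 35.4 TPM), Cct5 (162 ± 10.4), Tcp1 (147 ± 9.70) and Hsp90aa1 (115 ± 2.73). Other cytosolic folding genes were lower, such as Cct4 (25.2 ± 1.96 TPM), Cct2 (18.0 ± 2.15) and Hsph1 (3.11 ± 0.435). Genes of ubiquitin, proteasome and autophagy (24) held 2.45 ± 0.0937%, and all 24 reached 1 TPM in every library. Below Ubb, examples were Gabarapl1, an autophagy gene (155 ± 16.1 TPM), and the proteasome subunit Psmc5 (149 ± 10.6).

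Iron genes (10) held 2.40 ± 0.129%, nearly all from Ftl1, Hmox1 and the ferritin heavy chain gene Fth1 (376 ± 7.16 TPM). The light chain was above the heavy chain in every library, while Tfrc, the transferrin receptor, had 3.84 ± 0.415 TPM. Antioxidant and glutathione genes (27) held 1.31 ± 0.0356% with the glutathione transferases Gstp1 (375 ± 3.05 TPM) and Gstm1 (292, 268 and 380 TPM), the peroxiredoxin Prdx1 (255 ± 13.5) and glutathione synthetase Gss (150, 181 and 196 TPM). Gstm1 was highest in Ctrl 3, and Gstp1 differed by little between the libraries.

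Energy genes came from both genomes. Mitochondrially encoded genes (13) held 1.96 ± 0.246%, with sums of 2674, 2686 and 3483 TPM that set Ctrl 3 above the others, and nuclear genes of the respiratory chain (20) held 1.84 ± 0.0317%. Glycolysis (16 genes, a list that leaves out Pgam2 and the enolase copy Eno1b) held 1.39 ± 0.0613%. Its highest members were Gapdh, the enolase Eno1, Pkm (322 ± 28.5 TPM) and Aldoc (310 ± 48.2 TPM). Aldoc, an aldolase known mainly from brain, exceeded the general form Aldoa (185 ± 11.5 TPM) in every library. In Ctrl 1, Eno1b had 333 TPM beside 185 TPM for Eno1, against 0.764 and 0.676 TPM for Eno1b in Ctrl 2 and 3. The list's sum in Ctrl 1 leaves that part out. Among the polyol and pentose genes (10 genes, 0.119 ± 0.00594%), Tkt had 59.3 ± 8.55 TPM and aldose reductase, Akr1b3, 23.9 ± 2.32 TPM.

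Genes linked to loss of organelles and to lysosomes (17) held 0.703 ± 0.0126%. This share includes the highest gene of the list, Cdkn1c, which is counted in the cell cycle list as well. Cdkn1c, the cell cycle inhibitor of newly formed fibres, had 199, 214 and 276 TPM, the lysosomal protease Ctsl 219, 168 and 153 TPM, and Plaat3, the phospholipase that opens organelle membranes, 178, 172 and 177 TPM. Cdkn1c was highest in Ctrl 3 and Ctsl in Ctrl 1, while Plaat3 differed little. Capsule and basement membrane genes (21) held 0.388 ± 0.0297%, with Sparc, a collagen-binding protein, at 339 ± 30.4 TPM, Nid1 (nidogen) at 77.5 ± 12.1 and Col4a2 at 32.5 ± 3.79 TPM.

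Signalling genes (29 of the FGF, BMP, Notch and Wnt pathways) held 0.433 ± 0.0349%, and most of that sum came from 2 secreted proteins: Dkk3, a secreted Wnt modulator, had 308, 381 and 396 TPM and Sfrp1, a secreted Wnt inhibitor, 81.1, 108 and 109 TPM. The FGF receptors Fgfr3 (17.5 ± 2.67 TPM), Fgfr2 (13.6 ± 3.07) and Fgfr1 (8.51 ± 1.23) were lower. Cell cycle genes (22) held 0.211 ± 0.0344%, of which Cdkn1c gave most, while the proliferation gene Mki67 had 0.0711, 0.0295 and 0.129 TPM. Cholesterol and lipid synthesis (19) held 0.143 ± 0.0187%, led by the desaturase Scd2 at 47.4 ± 4.70 TPM.

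Hippo pathway genes (19) were a minor part of the transcriptome at 0.0274 ± 0.00194% of transcripts outside the crystallins. The highest were Nf2, an upstream regulator (8.31, 8.54 and 8.61 TPM), and Ccn2, a known target gene (7.15, 9.44 and 8.47 TPM). Yap1, the co-activator that the study deletes in its other group, had 1.56, 1.57 and 1.25 TPM from 155, 133 and 143 counts, so the floxed gene was expressed in every control pool. Its paralogue Wwtr1 (TAZ) had 0.265 ± 0.126 TPM. Of the TEAD factors that bind both, Tead2 had 1.37, 1.33 and 2.05 TPM, and Tead1 (0.162 ± 0.0181 TPM), Tead3 (0.104 ± 0.0571) and Tead4 (0.0657 ± 0.0601) were below 1 TPM in every library.

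**Figure D4:**
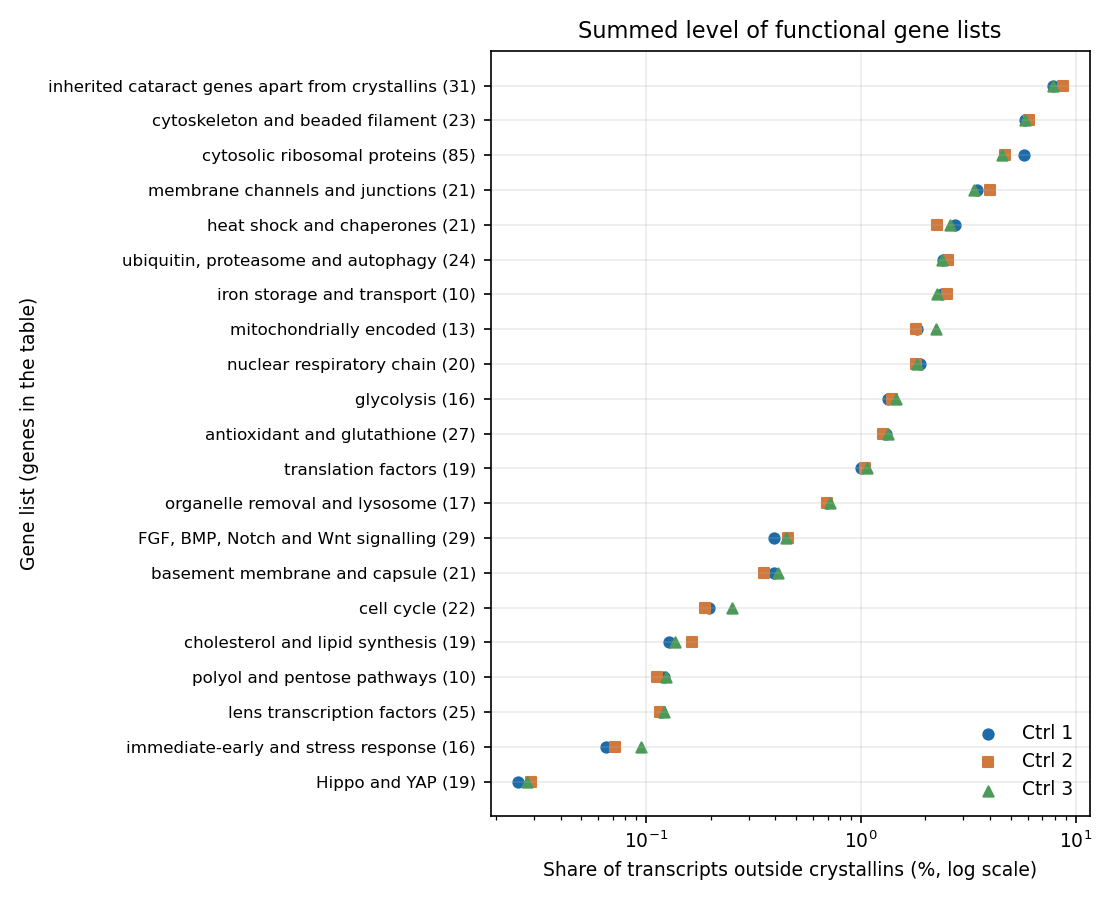
Share of transcripts outside the crystallins (horizontal, %, log scale) held by each of 21 functional gene lists, 1 symbol per control library, with the number of genes in brackets. Lists run from 8.12% for inherited cataract genes to 0.0274% for Hippo genes on average, and the libraries separate visibly for ribosomal proteins, mitochondrially encoded genes, cell cycle and cholesterol synthesis.

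The pathway terms of the deposited table were summed in the same way. Of 22167 genes outside the crystallins 9188 carry a KEGG pathway, and these held 57.2% of transcripts outside the crystallins. Metabolic pathways as a whole held 15.4 ± 0.447%, oxidative phosphorylation 6.89 ± 0.212% over 139 genes and ribosome 5.42 ± 0.636% over 146 genes. The KEGG term for glycolysis and gluconeogenesis held 2.25 ± 0.0796% over 69 genes, and its most abundant member was Pgam2, with 20.6% of the sum. Several other leading pathways owed a large part of their sum to a single gene. PPAR signalling (6.35 ± 0.666%) owed 67.7% of its sum to Fabp5, necroptosis (3.49%) owed 45.4% and ferroptosis (2.76%) owed 57.4% to Ftl1, and ubiquitin mediated proteolysis (2.95%) owed 43.3% to Ubb.

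Transcription factors were a small part of the RNA. The deposited table assigns 1601 genes to a transcription factor family, of which 1224 had a count, 390 reached 1 TPM in every library, and all together held 2.27 ± 0.0929% of transcripts outside the crystallins. Only 4 averaged 100 TPM or more: Carhsp1 (156, 200 and 199 TPM), Tsc22d1 (141, 119 and 160 TPM), Cnbp (124 ± 10.3 TPM) and Ybx1 (122 ± 11.5 TPM), of which Carhsp1, Cnbp and Ybx1 are nucleic acid binding proteins best known for acting on RNA. The 25 factors listed for their role in the lens held 0.118 ± 0.00239%, and 15 of them reached 1 TPM in every library.

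Hsf4, the heat shock factor of fibre cells and a cataract gene, was the highest of the 25 with 32.4, 40.8 and 36.1 TPM. Pitx3, an epithelial factor, had 27.4, 26.4 and 25.6 TPM, and Prox1, which drives fibre elongation, had 22.5, 24.5 and 27.5 TPM. Foxe3, Mab21l1 (13.6 ± 1.40 TPM) and Pax6 (13.3, 11.4 and 13.4 TPM), the regulator of eye development, came next. Hsf4 lay above all the others in every library, whereas the ranges of Pitx3, Prox1 and Foxe3 overlapped.

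The small Maf gene Mafg had 7.52 ± 1.11 TPM, the FGF-responsive factor Etv5 7.19 ± 0.684 and the Notch target Hey1 5.19 ± 0.403 TPM. Maf, a main activator of crystallin genes, had only 3.21, 4.10 and 5.16 TPM, highest in Ctrl 3. Zeb2 (3.59 ± 0.269 TPM), Meis2 (2.94 ± 0.465), Sox2 (2.24, 3.11 and 2.79 TPM), Six3 (1.37 ± 0.0305) and Rxra (1.21 ± 0.348) lay near this level. Gata3, Rara, Sox1, Meis1, Tfap2a, Six5, Mab21l2, Tead1 and Klf4 were each below 1 TPM on average.

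Spread between the control pools was measured on expected counts after TMM scaling. The common biological coefficient of variation was 16.6%, and its median over genes was 16.7%. Of the 10608 genes tested, 4373 (41.2%) varied more than counting noise alone allows, by a chi-square test against shares proportional to library size, adjusted by Benjamini-Hochberg at 0.05, which compares these libraries only. That share rose with abundance, from 80 of 727 genes below 1 CPM and 48.8% at 10 to 30 CPM to 86.0% at 100 to 300 CPM and 100% of the 37 genes at 1000 CPM or more. Over the same classes the median SD of log2 CPM fell from 0.32 to 0.14 and 0.11 and was 0.13 in the highest. Among the 4112 genes with a mean of at least 10 CPM, the highest library exceeded the lowest by a median of 1.19-fold, and 49 genes (1.19%) differed by 2-fold or more. The filter asks for enough counts in all 3 libraries, so genes missing from a pool are not among those tested.

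The steadiest genes with at least 100 CPM were Cd81, a tetraspanin of the cell surface (105, 104 and 106 CPM), Atp5b of the ATP synthase (639, 632 and 630 CPM), Tcp1, Hsp90aa1, Ezr, Glo1, Emb, Ndufa1, Snx3 and Dstn. The largest range among these 10 was 1.03-fold, and none varied beyond counting noise. They were chosen for small spread in these same counts, so neither result is a separate test of steadiness. Gapdh, often used as a reference, had 852, 783 and 736 CPM and did vary beyond it, as did Fabp5 with 7804, 7416 and 5631 CPM. The order of steadiness depended on the scale. By TPM Gapdh was steadier than Atp5b, with 545, 527 and 541 TPM against 288, 299 and 327 TPM.

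The widest spread belonged to Eno1b, a copy of the enolase gene Eno1, with 674, 1.48 and 1.20 CPM. Eno1 itself had 431, 922 and 906 CPM and was lowest where Eno1b was high. The counts of both are partly fractional, and their sum was 518, 414 and 446 TPM, with a coefficient of variation of 11.7%. The sum differed by 1.25-fold between the highest and the lowest library where Eno1b alone differed by 527-fold, so the level of either gene alone is uncertain.

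Most other genes of wide spread set Ctrl 3 apart. Egr1, an immediate-early transcription factor, had 1.66, 2.31 and 43.5 CPM. Of the 14 immediate-early and stress genes tested, 12 varied beyond counting noise, against 41.2% of all genes tested, and 7 were highest in Ctrl 3, 5 in Ctrl 2 and 2 in Ctrl 1. Of all genes tested, 36.7%, 31.8% and 31.5% were highest in these libraries. Those high in Ctrl 3 were chosen for mention after their values were seen: Fos had 0.233, 0.636 and 9.63 TPM, Junb 1.17, 1.18 and 5.42 TPM, Ier2 0.816, 0.604 and 3.43 TPM, and Dusp1 14.3, 18.9 and 36.1 TPM. The stress genes Atf4 (28.9, 31.3 and 29.5 TPM) and Jund (23.7, 24.1 and 17.8 TPM) did not follow them.

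Other genes were low in Ctrl 3. Srxn1, an enzyme that restores oxidised peroxiredoxins, had 63.2, 69.3 and 8.42 CPM, and Lmna, the gene of nuclear lamins A and C, had 39.9, 33.3 and 6.53 CPM. Plat, a plasminogen activator (25.1, 29.8 and 4.10 CPM), Tlr2, a receptor of innate immunity (18.0, 13.0 and 2.47 CPM), Tnfrsf12a, the receptor of TWEAK (13.9, 19.9 and 2.87 CPM), and the survival gene Mcl1 (27.4, 28.7 and 8.997 CPM) had the same pattern. Pfkp, Gadd45gip1, D8Ertd738e, Plekha3 and Epb41l4a were also lowest there, by 2.88- to 6.49-fold between the highest and lowest library. Serpinh1, a collagen chaperone, was higher in Ctrl 3 instead, with 9.94, 9.04 and 28.6 CPM. Chosen after their values were seen, the metallothionein genes Mt1 (23.0, 14.7 and 0.636 TPM) and Mt2 (11.4, 7.45 and 0 TPM) and the cell cycle inhibitor Cdkn1a (2.95, 2.77 and 0.331 TPM) were low in Ctrl 3 as well. Krt19, a keratin, was instead high in Ctrl 1, with 26.6, 8.72 and 7.22 CPM.

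**Figure D5:**
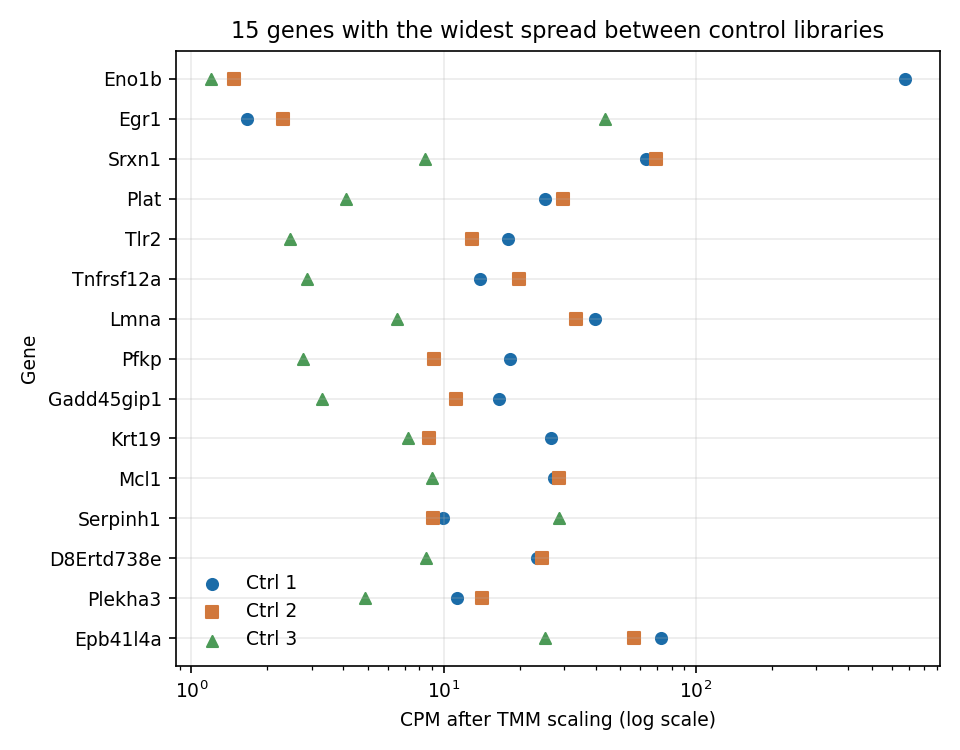
CPM after TMM scaling (horizontal, log scale) of the 15 genes with the widest spread among those with a mean of at least 10 CPM, 1 symbol per control library. Eno1b and Krt19 are high in Ctrl 1, Egr1 and Serpinh1 are high in Ctrl 3, and the other 11 genes are lowest in Ctrl 3.

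Groups of related genes also leaned towards single libraries, by small steps. All 16 crystallins varied beyond counting noise, as did all 37 genes at 1000 CPM or more. On the TMM scale, which holds the bulk of genes level, both α-, 5 of 6 β- and 7 of 8 γ-crystallins were highest in Ctrl 1 (2, 4 and 5 when scaled by total counts), and 2, 6 and 6 were lowest in Ctrl 3. Of all genes tested, 31.5% were highest in Ctrl 1 (19.4% by total counts) and 34.7% lowest in Ctrl 3. Median deviations of the crystallin classes from the mean of the 3 libraries were at most 0.19 on the log2 scale.

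Of 82 ribosomal protein genes tested, 79 were highest in Ctrl 1 (73 by total counts), against the 31.5% of all genes given above. Their median deviation from the mean of the 3 libraries was 0.26 in Ctrl 1, -0.09 in Ctrl 2 and -0.17 in Ctrl 3 on the log2 scale. Of the 82, 80 varied beyond counting noise, against 41.2% of all genes tested. The share was 66.7% of all genes at 30 to 100 CPM and 86.0% of those at 100 to 300 CPM. The retinal and red cell genes were highest in Ctrl 1 too (4 of 4 and 3 of 3 tested), and their part in this was not tested.

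Of 21 cell cycle genes tested, 18 were highest in Ctrl 3 (19 by total counts), against 36.7% of all genes (55.8% by total counts), and 15 were lowest in Ctrl 2, against 32.9%. Examples are the cyclin gene Ccnd2 with 41.4, 28.2 and 58.2 TPM and Ccnd1 with 15.6, 11.2 and 17.5 TPM. Of the 21, 11 varied beyond counting noise, not far from the 41.2% of all genes tested. Epithelial genes were lowest in Ctrl 2 in 11 of 23 cases, and the part of the epithelium in the cell cycle values was not tested.

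Of 18 cholesterol and lipid synthesis genes tested, 15 were highest in Ctrl 2 (11 by total counts), where 31.8% of all genes were highest (24.9% by total counts). Of the 18, 15 varied beyond counting noise, against 41.2% of all genes tested. Idi1, an enzyme of the isoprenoid pathway, had 16.8, 24.8 and 18.3 TPM. The levels of Scd2 (42.3, 51.6 and 48.3 TPM) and Fdft1, squalene synthase (14.5, 19.4 and 18.3 TPM), were also highest in Ctrl 2, whereas Fdps (32.5, 34.8 and 34.7 TPM) hardly differed between Ctrl 2 and Ctrl 3. Of 13 mitochondrially encoded genes, 9 were highest in Ctrl 3 (10 by total counts), against 36.7% of all genes (55.8% by total counts), and 10 were lowest in Ctrl 2, against 32.9% of all genes. All 13 varied beyond counting noise, against 41.2% of all genes tested. Under scaling by total counts the median deviation of all genes was -0.08, -0.02 and 0.11 on the log2 scale in Ctrl 1, 2 and 3, where TMM puts it close to 0.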

How the data were processed

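The authors deposited 1 table of expected (estimated) counts per gene and of FPKM values, per the file headers. In the deposited FPKM a count is divided by the library's total and a length, per the values. The length these values imply was nearly the same in all 3 libraries for 44.3% of genes with a count. For others it differed, as for Lamb2 with 99, 93 and 155 counts but 0.760, 1.32 and 1.22 TPM. A difference in TPM between libraries can therefore include a difference in this length. Per the labels' protocols, poly(A) libraries were made from 1 µg of RNA with an integrity number above 8.0 and read as 150 bp pairs. RSEM, Trimmomatic 0.18.0 and GRCm39 are listed, per the submitters' processing notes. Aligner, annotation and strandedness were not given in the sources used here, and overlapping antisense genes cannot be told apart.

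From the deposited FPKM of the 3 control libraries, TPM was computed for abundance and ranks. Values are mean ± SD of 3 pools, and no comparison between groups was made. For spread, the deposited expected counts were rounded, then filtered (filterByExpr at its defaults of 10 counts and 15 in total) and scaled by TMM in edgeR 4.0.16 (R 4.3.3), with an intercept-only dispersion fit. A chi-square test asked whether a gene's counts over the libraries differ more than counting allows, adjusted by Benjamini-Hochberg over 10608 genes at 0.05. It was tested on simulated data. A count was taken as fractional if it lay more than 0.005 from a whole number, which held for 2101 genes (9.47%) holding 41.6% of transcripts. Promoter letters were searched in RefSeq sequences of GRCm38.p6, which is another build than that of the counts.

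The description of these libraries, its members and the 34 gene lists (601 genes found, 6 symbols missing) were chosen with earlier results of these data known. Genes were named by rule: the 25 most abundant, the 30 most abundant outside the crystallins, the highest of each list with cell markers near 0, all crystallins and listed lens factors, the 15 widest (mean of at least 10 CPM) and 10 narrowest (at least 100 CPM) in spread, leading pathway genes and Yap1. Further list members were picked after their values were seen, to describe their list. Values of a few listed genes are not reported here. Alternatives tried were shares of counts, leaving out fractional genes or each library, other thresholds, pseudocounts, filters and scalings, and DESeq2 1.42.0.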

Additional observations from a re-analysis of the deposited data

How the results depend on the processing

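No paired analysis was possible because only 1 group was described and no groups were compared. Of 50 alternative values, 40 stayed close to the main value and 10 moved away from it. Close meant within an SD, or within 1.5-fold for numbers of genes. For crystallin shares and fibre to epithelial values this was the SD of the 3 libraries. A mean without 1 of the 3 cannot move that far, so those values were close by construction. For the spread between libraries it was the SD of the values with each library left out. The tally is therefore not a measure of robustness. Only the log2 fibre to epithelial values could change sign, and none did. Counts depended on the threshold, with 8422 genes at 0.5 TPM or more and 5216 at 2 TPM or more in every library, against 6915 at 1 TPM. As shares of expected counts, which are not corrected for length, the crystallins held 72.6%, 364 genes held 50% of the rest, and the fibre to epithelial ratio of sums was 4.22 (log2). Without genes with fractional counts the crystallins held 79.3%, 3 genes held 50% of transcripts, and the ratio was 5.03. The common coefficient of variation was 19.3% with no filter other than a count above 0. Leaving out each library in turn gave crystallin shares of 84.8 to 85.3%, 212 to 227 genes holding 50% outside crystallins, fibre to epithelial ratios of 5.15 to 5.34, differences of the log2 medians of 2.43 to 2.72, and 7063 to 7118 genes at 1 TPM or more. It gave a coefficient of variation of 13.3 to 18.1%, lowest without Ctrl 3, and 2161 to 3055 genes beyond counting noise (2161 without Ctrl 3, 2892 without Ctrl 1 and 3055 without Ctrl 2), where fewer libraries were tested. The top 30 genes outside the crystallins stayed the same when any library was left out, but only 22 were shared by expected counts and 23 without fractional genes. DESeq2's dispersions gave a median coefficient over genes of 18.0% against 16.7%. An alternative added after seeing the data, without retinal and red cell genes and Eno1b, left 221 genes holding 50%. Depth limits genes of a few counts, and 3 pools limit every SD.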
